A study of Mus musculus with 20 samples.

Results

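The livers of CD44KO(HFD) mice were compared with those of WT(HFD) mice across every gene that the array could measure. The 10 liver arrays, 5 for each genotype, were taken by their labels from the 20 arrays of the study, and the other 10 held white adipose tissue (WAT) of the same 2 groups. All mice were males on the C57BL/6 background, were 7 months old and had eaten a diet with 35% fat for 21 weeks. The 2 groups therefore share the diet, the age and the sex, and differ by label in Cd44 alone. The knockouts carried the deletion in every cell and, per the study's methods, were a line backcrossed onto C57BL/6J. The methods name 5 mice of each group, but the labels only number the arrays and do not tie them to mice, so the p-values measure the spread between these arrays.

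CD44 is a cell surface receptor for hyaluronan, a sugar polymer of the matrix, and is made by leukocytes, by stellate cells and by epithelial cells that are stressed or dividing. Liver on a fat-rich diet stores lipid in hepatocytes, draws in monocytes and lymphocytes, and can lose part of the hepatocyte programme of bile acid, drug and plasma protein genes. The resident macrophages of the liver are Kupffer cells, and other macrophages derive from blood monocytes and take on lipid. RNA of whole liver holds all of these cells together, so fewer cells of a type and less RNA per cell cannot be told apart.

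Each gene's level is given as log2 of the processed signal minus the 75th percentile of its array, so that 0 is the 75th percentile and 1 unit is a doubling. Across the 10 arrays that percentile lay between 432.7 and 574.6 signal units, and between 57.4% and 61.9% of spots were well above background. Pearson correlations across 24688 probes were 0.979 to 0.991 within a genotype and 0.963 to 0.99 between genotypes. Among the genes called below, CD44KO(HFD) replicate 3 was the knockout array nearest to WT(HFD) for 763 of 1107 higher genes and for 681 of 954 lower genes. WT(HFD) replicate 4 was the wild-type array nearest to CD44KO(HFD) for 533 and 484 of them. Slides A and B held 2 arrays of each genotype and slide C held 1 of each, but place on a slide nearly went with genotype: both genotypes shared position 2 alone, held by WT(HFD) replicates 4 and 5 and CD44KO(HFD) replicate 1, so the 2 can hardly be told apart. All 13 tested hepatocyte markers were measured, with a summed level of 2970 to 3840 in WT(HFD) and 3600 to 4300 in CD44KO(HFD) in units of the 75th percentile, and none was absent.

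Cd44 itself was measured by 3 probes, whose first 30 bases of 60 are given because their values differ. They lie on the minus strand of chromosome 2 in build mm7.
Cd44 probe at chr2:102663537-102663596: cactgggatcttatcatcagataagcaggt
Cd44 probe at chr2:102662297-102662356: gccaattgcttaggtatgtacaatgagttt
Cd44 probe at chr2:102685050-102685109: tcatagtacaacccttcagcctactgcagc
The first of them read 0.83, 0.64, 0.11, 0.35 and 0.46 in WT(HFD) and -3.79, -4.19, -3.39, -4.06 and -3.24 in CD44KO(HFD). All 5 knockout arrays, replicate 3 included, lay more than 3 units below the lowest wild-type array. The difference was -4.21 ± 0.20 (SE, n = 5 per genotype; limma, adjusted p = 6.65e-06), and the second probe gave -4.57. The third was barely detected, with a mean level of -4.83 and signal over background on 3 WT(HFD) and 2 CD44KO(HFD) arrays, and differed by 0.20 with an adjusted p of 0.888.

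The overall change was wide and lopsided. Of 14270 genes, 1107 were higher in CD44KO(HFD), which is 7.76% of those tested, and 954 were lower, which is 6.69% (limma, adjusted p at most 0.05). Higher genes moved little and lower genes moved more: 70 of the higher genes reached 2-fold against 290 of the lower genes, and the median change was 0.42 among the higher and -0.77 among the lower. Higher genes were also brighter, with a median level of 1.37 against -0.68 for lower genes and 0.2 for all genes. In 12.5% of all genes the 5 arrays of each genotype did not overlap, which was so for 788 of the higher and 599 of the lower genes. For a single gene without overlap the exact two-sided permutation test over arrays gave p = 0.0079, the smallest that 5 against 5 allows. At the level of probes 3358 of 24688 were called, or 13.6%, and the median change over all genes was 0.07.

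**Figure D1:**
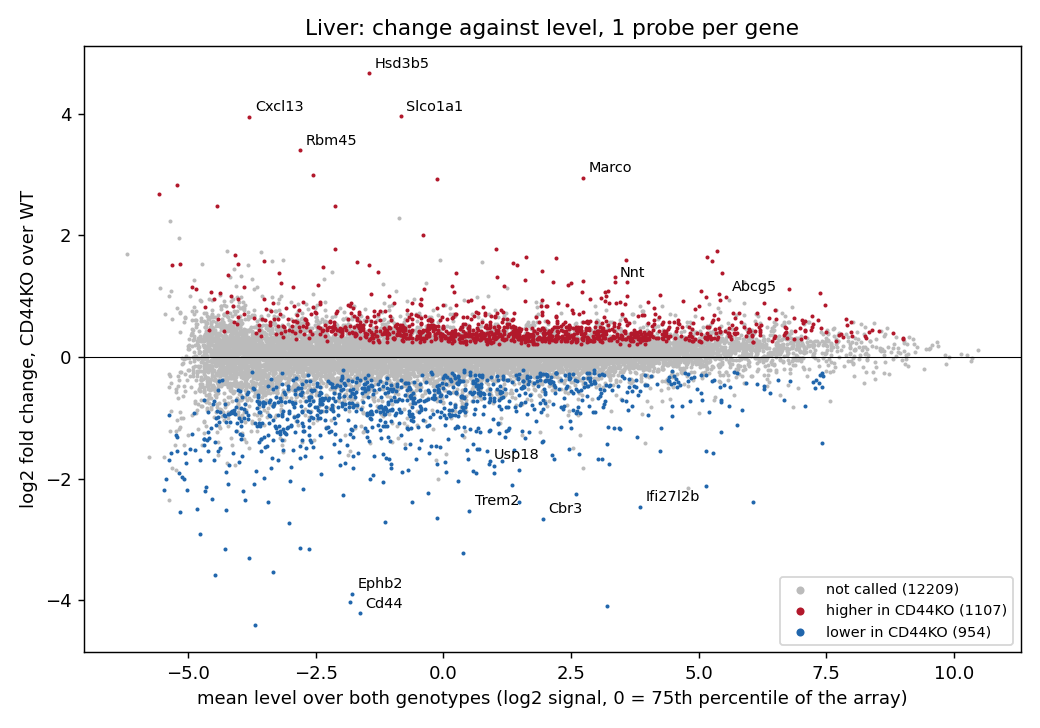
Log2 fold change of CD44KO(HFD) over WT(HFD) liver on the vertical axis against the mean log2 level on the horizontal axis, 1 point per gene, with 1107 genes called higher in red, 954 called lower in blue and 12209 not called in grey. The red points stay near the zero line over bright genes, whereas the blue points reach down to -4 among dim ones.

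The higher set lost more of its calls than the lower set under a model-based background correction (normexp). This setting started from the mean spot signal and the local background. It therefore also left out the spatial and multiplicative corrections of the processed signal. Of the 1107 higher genes 98 were still called and all 1107 kept their sign. Of the 954 lower genes 312 were still called and 894 kept their sign. Among the 3568 brightest genes, at a median level of 3.87, higher calls went from 404 to 4 and lower calls from 160 to 127. Which step moved the calls was not tested. Without WT(HFD) replicate 2 the counts fell to 206 higher and 307 lower genes, and without CD44KO(HFD) replicate 3 they were 1621 and 1274. Scaling to the 75th percentile of detected probes gave 801 higher and 1087 lower genes, so the side with more calls turned with the scaling. A total of 45 higher and 155 lower genes were called under normexp and in every fit that left out 1 array.

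**Figure D2:**
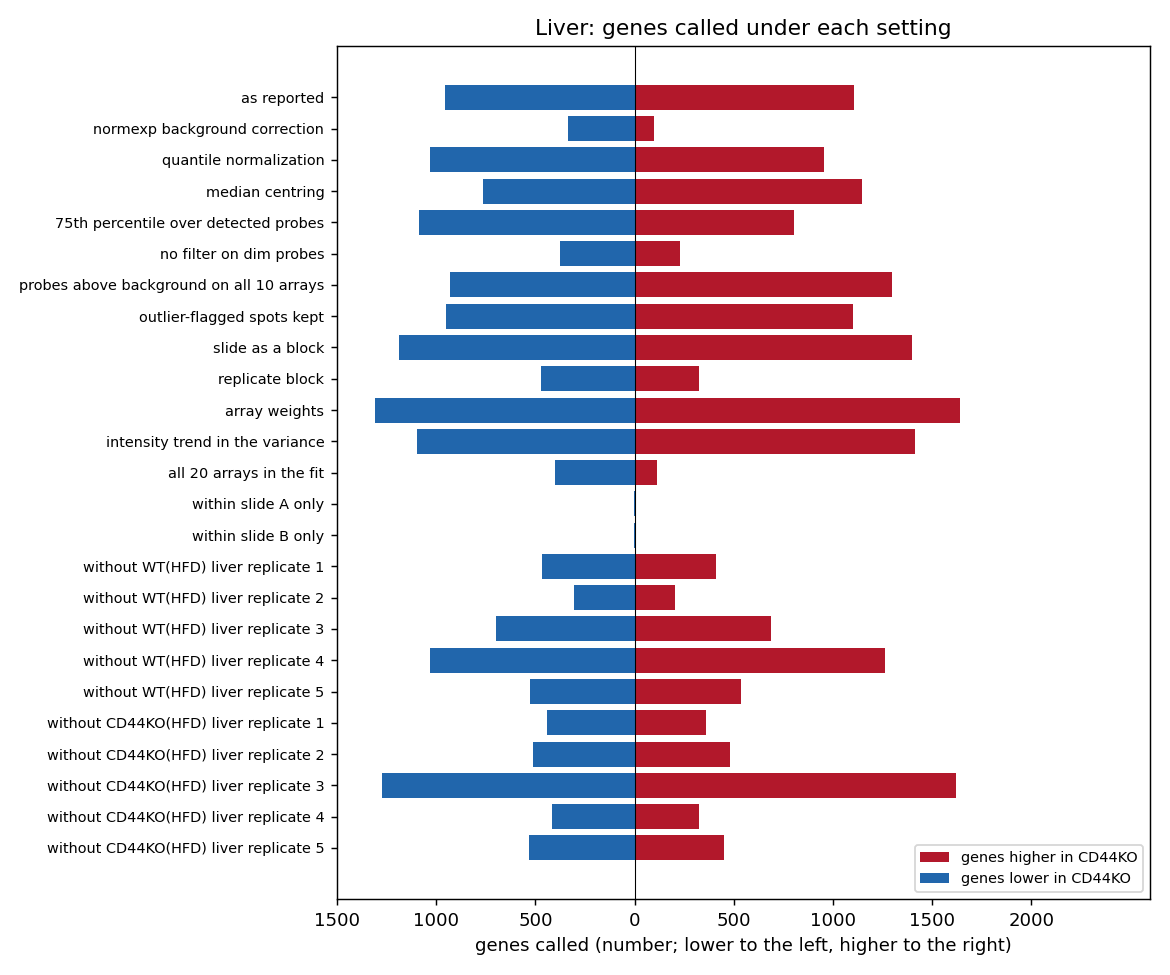
Number of genes called higher (red, to the right) and lower (blue, to the left) in CD44KO(HFD) liver under each setting, with the reported analysis on top. The higher count ranges from 0 within slide B to 1640 with array weights.

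The largest rise belonged to genes that male mouse liver expresses far more than female liver under the pulses of growth hormone. Hsd3b5, a hydroxysteroid dehydrogenase of this kind, read -4.80, -3.29, -3.17, -3.14 and -4.50 in WT(HFD) and 0.11, 4.45, -2.90, 1.51 and 1.25 in CD44KO(HFD). The knockout arrays lay above all wild-type arrays, replicate 3 only just, and spread over more than 7 units. The difference was 4.66 ± 1.10 (SE; limma, adjusted p = 0.0258), or 25.3-fold, and it was called in 4 of the 10 fits with 1 array left out. Slco1a1, an uptake carrier for organic anions, differed by 3.96 (limma, adjusted p = 0.0316), but WT(HFD) replicate 4 at -0.37 overlapped CD44KO(HFD) replicate 3 at -0.74. Cyp4a12a, a fatty acid hydroxylase, ran from 2.34 to 3.06 in WT(HFD) and from 3.36 to 4.12 in CD44KO(HFD), without overlap, and rose by 0.89 (adjusted p = 0.0175). A second Cyp4a12a probe of similar level differed by 1.01 and was not called (limma, adjusted p = 0.145). Cyp7b1, an oxysterol hydroxylase, rose by 0.92 (adjusted p = 0.0422).

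Over the male-biased list 6 of 19 tested genes were called higher and none lower, against 7.76% and 6.69% of all genes, and 18 of the 19 differences were positive with a median of 0.51. The median was 0.53 within slide A, 0.56 within slide B and 0.17 within slide C. Without WT(HFD) replicate 2 1 member was called, and without CD44KO(HFD) replicate 3 the count was 9. The female-biased list had 1 of 16 called higher, Cyp4a14 at 1.11, and 1 lower, Aldh1b1 at -0.81. In the list of growth hormone and IGF signalling, Igfbp2, a binding protein for insulin-like growth factors, read 3.42 to 4.80 in WT(HFD) and 4.97 to 6.76 in CD44KO(HFD), a rise of 1.64 or 3.11-fold (limma, adjusted p = 0.0204). Ghr, the growth hormone receptor, rose by 0.46 and Igfbp3 fell by 0.93. Under normexp the calls of Cyp4a12a, Cyp7b1, Igfbp2, Ghr and Cyp4a14 were lost, with limma adjusted p of 0.0703, 0.198, 0.0561, 0.356 and 0.0956. Ghr was called in 2 of the 10 fits with 1 array left out, and 3 of its 5 probes were called higher.

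**Figure D3:**
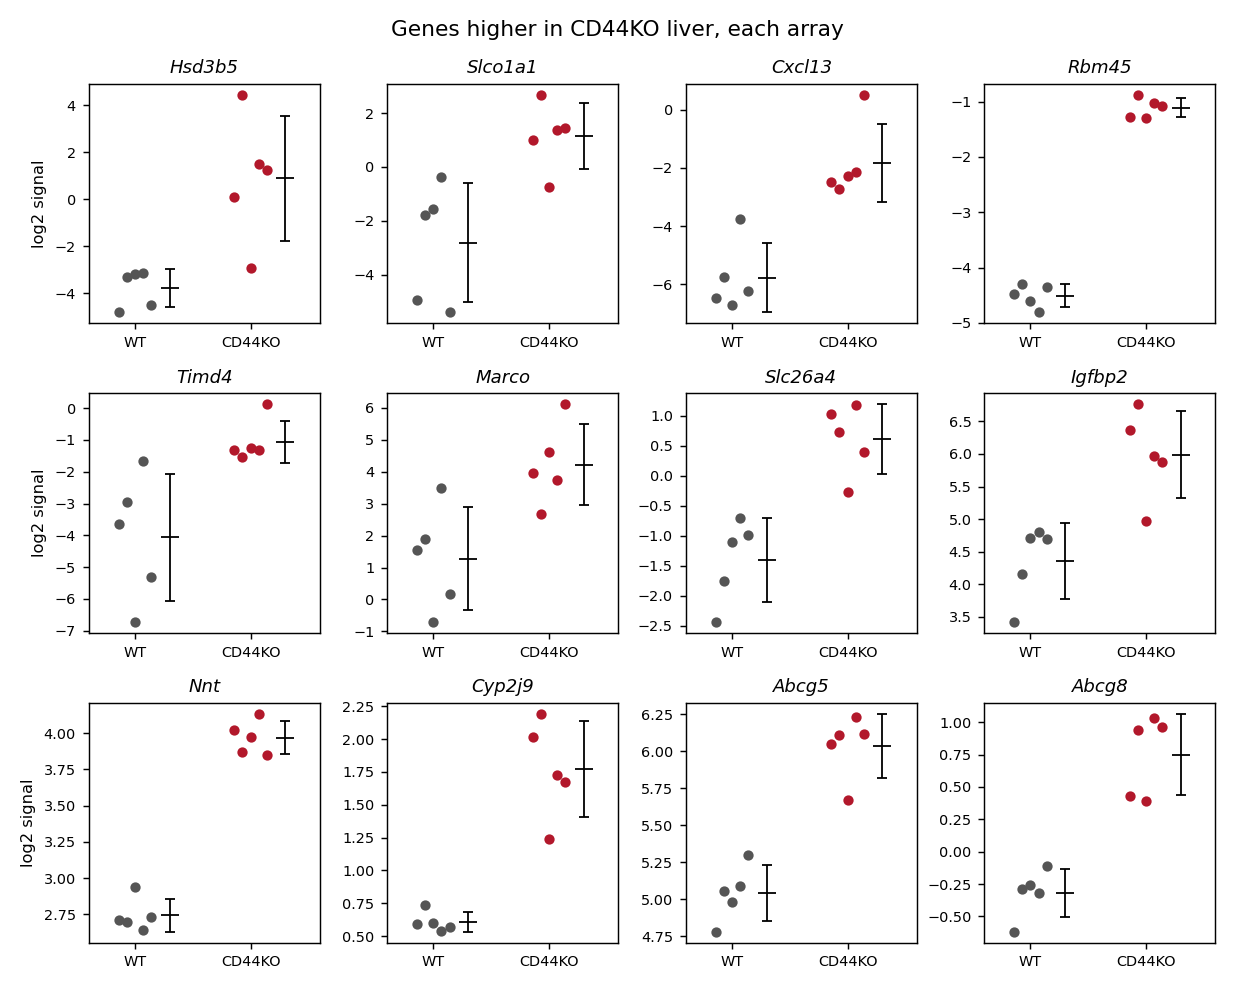
Log2 signal relative to the 75th percentile of each array for 12 genes called higher in CD44KO(HFD) liver, 1 point per array (grey WT, red CD44KO), with the mean and SD of 5 arrays beside them. Nnt and Rbm45 show tight groups, whereas Hsd3b5, Slco1a1 and Marco spread over several units.

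Genes of sterol export and bile acid handling rose together in part. Abcg5 and Abcg8 encode the partner subunits of the transporter that pumps cholesterol and plant sterols into bile. Abcg5 read 4.78, 5.06, 4.98, 5.09 and 5.30 in WT(HFD) and 6.05, 6.11, 5.67, 6.23 and 6.12 in CD44KO(HFD), a difference of 0.99 ± 0.12 (SE; limma, adjusted p = 0.0045). Abcg8 read -0.62, -0.29, -0.26, -0.32 and -0.11 against 0.43, 0.94, 0.39, 1.03 and 0.96, a difference of 1.07 ± 0.15 (SE; adjusted p = 0.00815). Neither gene overlapped between genotypes, and both were called in all 10 fits with 1 array left out and after normexp. The 2 genes start head to head on chromosome 17, so they share the stretch between their starts, which is printed because both moved. It spans chr17:84683012-84683120 (GRCm38.p6, plus strand, RefSeq) and holds 109 bases, with matches to GATAA, the core of sites for GATA factors, in capitals on either strand.
Abcg5 and Abcg8 shared stretch: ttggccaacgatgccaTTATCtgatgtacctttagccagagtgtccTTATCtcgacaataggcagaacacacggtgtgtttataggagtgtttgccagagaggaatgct
It holds 2 matches, and 0.788% of 32851 promoter windows of that length hold as many.

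Among the other lipoprotein genes, Abca1, the exporter of cholesterol to apolipoproteins, rose by 0.37. Lcat, which esterifies cholesterol in plasma, rose by 0.54, and Vldlr rose by 0.67. In the whole list 6 were higher (24%) and 0 lower of 25, with a median of 0.17. Of all genes 7.76% were higher and 6.69% lower. In the list of bile acid synthesis and transport, 5 of 21 were higher (23.8%) and 1 was lower (4.76%). Slc10a1, the sodium-coupled carrier that takes bile acids up from blood, read 4.23 to 4.94 in WT(HFD) and 5.05 to 5.6 in CD44KO(HFD), without overlap, and rose by 0.79 (limma, adjusted p = 0.0181). Nr1h4, the bile acid receptor FXR, rose by 0.46, with normexp adjusted p of 0.0937 for Slc10a1 and 0.197 for Nr1h4, and Abcb4, the phospholipid exporter of the canalicular membrane, fell by 0.30. Under normexp 2 lipoprotein genes and 1 bile acid gene were called. The cholesterol synthesis list had no call in 25 genes and a median of -0.24, with Sqle, squalene epoxidase, at -1.49 (adjusted p = 0.0951), and fatty acid synthesis outside the genes the study tabulated had 1 higher of 20, Srebf1 at 0.55, with a median of -0.31.

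Drug-metabolising enzymes were higher by number. Of 44 tested members of cytochrome P450 families 1 to 3, 12 were higher and 1 was lower, with a median of 0.36. These shares were 27.3% and 2.27%, against 7.76% and 6.69% of all genes. Cyp2j9 read 0.59, 0.74, 0.60, 0.54 and 0.57 in WT(HFD) and 2.02, 2.19, 1.24, 1.73 and 1.67 in CD44KO(HFD), which did not overlap, and rose by 1.16 (limma, adjusted p = 0.00666). Cyp2c54, a member of the Cyp2c cluster, read -0.03 to 1.70 against 1.27 to 3.11, an overlap at CD44KO(HFD) replicate 3, and rose by 1.64. Cyp2c37, Cyp2c39, Cyp2c29 and Cyp2c23 rose by 1.38, 1.23, 0.89 and 0.99, and since the Cyp2c genes are close copies of each other their probes may share signal. Cyp2g1, the enzyme best known from olfactory mucosa, rose by 1.21, whereas Cyp1b1, found mainly in non-parenchymal cells, fell by 1.57. The Cyp1b1 probe was above the detection limit on 1 CD44KO(HFD) array, and under normexp it differed by -0.13 (limma, adjusted p = 0.803).

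Of 12 higher P450 genes in this list 5 did not overlap, against 788 of 1107 among all higher genes. In the list 1 gene was called higher under normexp, 1 without WT(HFD) replicate 2 and 16 without CD44KO(HFD) replicate 3. The conjugating enzymes were mixed, with 5 higher and 3 lower of 22 glucuronosyl and sulfo transferases. These shares were 22.7% and 13.6%, against 7.76% and 6.69% of all genes. Ugt1a1, which conjugates bilirubin, rose by 0.71 and Sult1b1 rose by 0.74, while Sult5a1 fell by 1.86 and Ugt1a9 fell by 1.83. Glutathione S-transferases were split 3 and 3 of 23 (13% each), with Gstt3 at 0.93 and Gsta2 at -1.43. Among 36 liver transcription factors and nuclear receptors, 5 were higher (13.9%) and none lower. Among the 5 were Nr1i3, the drug-sensing receptor CAR, at 0.59, and Cebpa at 0.28.

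Plasma protein genes of the clotting cascade were higher in the largest share of any list on the higher side. Of 23 coagulation genes 10 were higher and none lower, with a median of 0.28. The share called higher was 43.5%, against 7.76% higher and 6.69% lower of all genes. F7, which starts the extrinsic pathway, rose by 0.69, Klkb1, plasma prekallikrein, by 0.50, Serpind1, heparin cofactor, by 0.48, and Plg, plasminogen, by 0.45. The changes were small, and 5 of the 10 did not overlap between genotypes, against 788 of 1107 among all higher genes. No member was called under normexp or without WT(HFD) replicate 2. Complement had 3 higher of 25 (12%), led by C8b at 1.22, a gene also in the male-biased list. Acute phase proteins went both ways, 5 higher and 5 lower of 27 (18.5% each). Itih4 and Fga rose by 0.72 and 0.52, whereas Orm1, Orm2 and Orm3, the orosomucoids, fell by 0.60, 0.81 and 1.79.

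Several genes of iron and haem handling were called, in both directions. Through the hepcidin axis the liver senses iron and sets its release into blood, and a change of this axis was not tested. Tfr2, the transferrin sensor of hepatocytes, ran from 5.90 to 6.24 in WT(HFD) and from 6.37 to 6.96 in CD44KO(HFD) and rose by 0.64 (limma, adjusted p = 0.0129), without overlap. Bmp6, the endothelial signal for hepcidin, rose by 0.70 on its brightest probe. A second, dimmer Bmp6 probe differed by 0.31 and was not called (limma, adjusted p = 0.203). Id1, a target of BMP signalling, read -0.12 to 0.70 against -1.40 to -0.49 and fell by 1.04 (limma, adjusted p = 0.0149). Hamp2, the second hepcidin gene, rose by 1.74, with overlap, but is counted with the acute phase proteins and not in the iron list. In the iron list 6 of 25 were higher, Cpox, Fech and Ppox of haem synthesis among them at 0.62, 0.40 and 0.39, and 2 were lower. These shares were 24% and 8%, against 7.76% and 6.69% of all genes. Under normexp 1 gene was called higher, Tfr2 having an adjusted p of 0.184, and 3 were higher without WT(HFD) replicate 2.

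**Figure D4:**
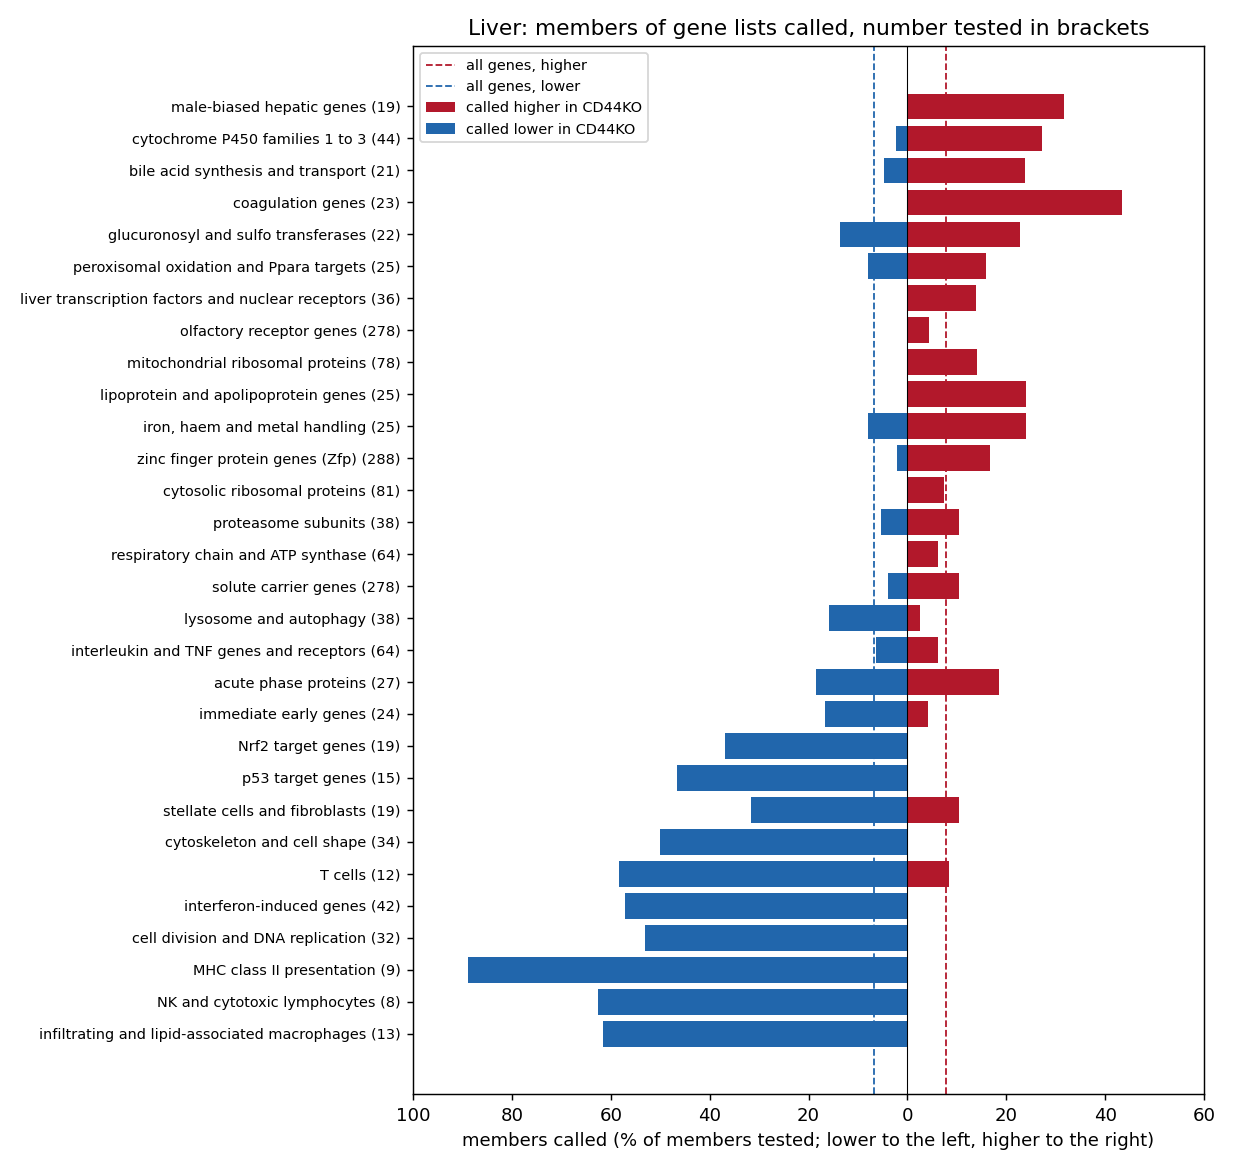
Percent of tested members of each gene list called higher (red, to the right) or lower (blue, to the left) in CD44KO(HFD) liver, with the number tested in brackets and dashed lines at the shares over all genes, 7.76% and 6.69%. Coagulation reaches 10 of 23 on the higher side, and MHC class II presentation reaches 8 of 9 on the lower side.

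Several large families shifted by a small step upward in their median. Over all genes the median was 0.07, with 7.76% higher and 6.69% lower. Of 288 zinc finger protein genes 48 were higher and 6 lower, with a median of 0.17 at a dim median level of -1.33. Zfp119b ran from -0.37 to -0.13 in WT(HFD) and from 0.28 to 0.51 in CD44KO(HFD) and rose by 0.62 (limma, adjusted p = 0.00417), and Zfp467 rose by 0.62. Under normexp 4 zinc finger genes were called, and without WT(HFD) replicate 2 there were 17. Mitochondrial ribosomal proteins had 11 higher and 0 lower of 78, with Mrpl15 at 0.51 and Mrpl47 at 0.45, and none was called under normexp. Olfactory receptors, which liver is not known to use, had 12 higher and 0 lower of 278 tested, with a median of 0.19 at a median level of -3.40. Their share of higher genes, 4.32%, was below that of all genes. Among the 3568 dimmest genes, at a median level of -3.49, the median change was 0.01 and 2.97% were higher and 8.13% lower.

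Solute carriers had 29 higher and 11 lower of 278, or 10.4% and 3.96%, against 7.76% and 6.69% of all genes. Slc26a4, the anion exchanger pendrin, read -2.44, -1.76, -1.11, -0.71 and -0.99 in WT(HFD) and 1.02, 0.72, -0.28, 1.18 and 0.39 in CD44KO(HFD). The groups did not overlap, and it rose by 2.01, or 4.02-fold (limma, adjusted p = 0.0133), in all 10 fits with 1 array left out and after normexp. Slc43a1, an amino acid carrier, rose by 1.56. Slco4a1 lay below the detection limit on every WT(HFD) array and was at least 1.30-fold higher in CD44KO(HFD).

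Cxcl13 and 2 of 15 Kupffer cell markers, Timd4 and Marco, were higher, with a wide spread between arrays. Cxcl13, the chemokine that attracts B cells, read -6.46, -5.74, -6.69, -3.75 and -6.22 in WT(HFD) and -2.49, -2.74, -2.29, -2.15 and 0.52 in CD44KO(HFD). The difference was 3.95 ± 0.71 (SE; limma, adjusted p = 0.0129) without overlap. Only 1 of the 5 WT(HFD) arrays had the Cxcl13 probe above the detection limit. Timd4, the receptor for phosphatidylserine on long-lived Kupffer cells, read -6.73 to -1.66 against -1.53 to 0.12 and rose by 2.99 (limma, adjusted p = 0.0414). Marco, a scavenger receptor, read 1.55, 1.88, -0.71, 3.49 and 0.17 against 3.95, 2.68, 4.63, 3.74 and 6.11 and rose by 2.95 (limma, adjusted p = 0.041), with overlap at WT(HFD) replicate 4. CD44KO(HFD) replicate 5 was the highest array for all 3 genes.

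Under normexp Cxcl13 differed by 1.72 and Timd4 by 1.58 (limma, adjusted p = 0.0495 and 0.0324), and Marco had an adjusted p of 0.0749. Timd4 and Marco were called in 2 of 10 fits with 1 array left out and Cxcl13 in 10. Within slide B Timd4 differed by 0.87 and Marco by 0.52, against 3.92 and 4.52 within slide A. Over the Kupffer list 1 gene, Id3 at -0.92, was lower, and the median was 0.33. The shares were 13.3% higher and 6.67% lower, against 7.76% and 6.69% of all genes. The list median was -0.06 within slide B, 0.43 within slide A and 1.42 within slide C, where WT(HFD) replicate 3 had the lowest summed level of all, 94 against 151 to 295 in CD44KO(HFD). The same array had the lowest summed level of endothelial markers, 36.3 against 57.4 to 79 in the other WT(HFD) arrays and 60 to 86.6 in CD44KO(HFD), and the endothelial median was 1.10 within slide C and -0.08 within slide B. The part of that array in the Kupffer values was not tested. B and plasma cell markers had no call in 10 genes, with summed levels of 3.76 to 6.62 and 3.17 to 5.49.

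Of the other genes that the study listed as higher in liver, Itgb3, an integrin subunit of platelets, rose by 1.55 on its brightest probe, with overlap, and a second probe was called lower by 0.40. Zfp36, which destabilises cytokine messages, differed by 0.72 (limma, adjusted p = 0.0561).

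Nnt and Rbm45 rose with little spread within each genotype. Nnt encodes the transhydrogenase of the inner mitochondrial membrane that makes NADPH, and substrains of C57BL/6 are known to differ by a deletion in this gene. It read 2.71, 2.70, 2.94, 2.64 and 2.73 in WT(HFD) and 4.02, 3.87, 3.97, 4.13 and 3.85 in CD44KO(HFD). The groups were far apart, and the difference was 1.23 ± 0.08 (SE; limma, adjusted p = 0.000114), or 2.34-fold, and 1.11 under normexp (adjusted p = 0.00324). Its 4 probes are given by their first 30 of 60 bases because their values differ (mm7, minus strand of chromosome 13).
Nnt probe at chr13:116544819-116544878: ccaaatctgcagcaggttatcagccttcac
Nnt probe at chr13:116545398-116545457: acaatccgatcttctacaaacctaacacag
Nnt probe at chr13:116545112-116545170: cccaaaaaagcaagagtattttgtccacag
Nnt probe at chr13:116603069-116603127: tcctctgggatgttttaaatacaaagttgg
The first 3, close together at the 3′ end, gave 1.23, 1.20 and 1.18 at mean levels of 3.36, 1.96 and 1.23. The fourth, upstream, differed by 0.27 with an adjusted p of 0.134. It was dim, at a mean level of -3.36, so place in the gene and level cannot be told apart. Whether the mice differed in an Nnt allele was not tested.

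Rbm45, an RNA-binding protein, was measured by 1 probe, printed because its adjusted p was the smallest of all genes.
Rbm45 probe at chr2:76224247-76227195, plus strand, mm7: tccaaaaagaggcagagaacttactgagtc
It read -4.47, -4.29, -4.60, -4.81 and -4.36 in WT(HFD) and -1.27, -0.87, -1.29, -1.02 and -1.08 in CD44KO(HFD), with no overlap. The difference was 3.40 ± 0.12 (SE; limma, adjusted p = 5.55e-07), or 10.6-fold, and 3 of the 5 WT(HFD) arrays had the probe above the detection limit. Under normexp it was 1.85 (adjusted p = 1.87e-05). Rbm45 and Cd44 both lie on chromosome 2. Within 20 Mb of Cd44 and without its own probes, 12.9% of 441 probes were called against 13.6% of all probes with a position, and 2 of them, or 0.454%, changed at least 4-fold against 0.338%. On the rest of chromosome 2, where Rbm45 lies, 13.1% of 1514 probes were called and 0.198% changed at least 4-fold. Several large changes lay much closer to Cd44 than 20 Mb. Cd59b and Cd59a, inhibitors of complement lysis, lay 1.27 and 1.3 Mb away and fell by 2.72 and 1.19. A second Cd59a probe, detected on all 10 arrays, differed by 0.10 with an adjusted p of 0.585. Slc1a2, Tcp11l1 and Mpped2, at -0.04, 1.88 and 4.05 Mb, fell by 1.19, 1.85 and 1.22. Of the unnamed transcripts, that at 1.8 Mb fell by 1.67 and that at 1.85 Mb rose by 1.43. None of these called probes overlapped between genotypes, and the share called in a narrower window was not tested.

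In WAT, analysed in the same way on its own arrays, 0.0294% of 13615 genes tested in both tissues were called, which is 4 genes, and 2 of these, Cd44 and Nnt, were also called in liver. Nnt differed there by 1.48 (limma, adjusted p = 0.0192). Rbm45 differed by 3.86 (limma, adjusted p = 0.185), Erdr1 by 1.12 and Usp32, a deubiquitinase, by 1.41 (adjusted p = 0.165 and 0.112), each without overlap and in the direction of liver. In liver Erdr1 read 3.75 to 4.85 in WT(HFD) and 5.66 to 6.32 in CD44KO(HFD), a rise of 1.57, and Usp32 rose by 1.01. Igfbp2 went the other way by value, at -1.73 in WAT (limma, adjusted p = 0.198). The difference between tissues was not tested.

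The remaining large rises were single genes of varied roles. Igsf21, an immunoglobulin family protein, rose by 1.57, Dsg1c, a desmoglein, by 1.38, Unc79, a partner of a sodium leak channel, by 1.35 and Azin2, an inhibitor of antizyme, by 1.15. Clec2d rose by 1.09, Tspan33, a tetraspanin, by 1.07, Egfem1 by 1.06, and Inmt, a methyltransferase of indole amines, by 1.06. Rdh16f2 and Hsd17b6, dehydrogenases of retinoids and steroids, rose by 1.09 and 0.97, and Epop by 1.12. Hhex, a homeobox factor of liver development, read 2.33 to 2.96 in WT(HFD) and 3.44 to 3.84 in CD44KO(HFD) and rose by 1.07 (limma, adjusted p = 0.00428). Adgrf1, an adhesion receptor, and Hhip, a hedgehog inhibitor, were below the detection limit on every WT(HFD) array and were at least 2.95-fold and at least 1.45-fold higher in CD44KO(HFD). Under normexp Igsf21, Dsg1c, Epop, Hhex and Adgrf1 were called, and Unc79, Azin2, Clec2d, Tspan33, Egfem1, Inmt, Rdh16f2, Hsd17b6 and Hhip had adjusted p between 0.0512 and 0.193.

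On the lower side, the interferon response kept a similar count under most settings. Interferons switch on these genes through promoter elements of GAAA, 2 bases of any kind and GAAA again. Of 42 tested genes 24 were lower (57.1%) and none higher, against 6.69% and 7.76% of all genes, with a median of -0.77. Under normexp 20 were called, 21 without WT(HFD) replicate 2 and 28 without CD44KO(HFD) replicate 3. Isg15, a ubiquitin-like protein, read 1.94, 2.17, 2.15, 2.23 and 2.28 in WT(HFD) and 0.99, 1.14, 1.06, 0.85 and 0.68 in CD44KO(HFD), a difference of -1.21 ± 0.10 (SE; limma, adjusted p = 0.000548). Every knockout array lay below every wild-type array, and replicate 3 was not the highest of its group here. Usp18, which removes Isg15 from proteins, read 1.59, 2.02, 1.69, 1.84 and 1.73 against -0.15, 0.07, 0.82, -0.36 and -0.33 and fell by 1.76 (limma, adjusted p = 0.00419).

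Ifit3 fell by 1.23, Irf7, the factor that amplifies type I interferon, by 1.22, Zbp1, a sensor of nucleic acids, by 1.28, Dhx58 by 0.74 and Oas1a, which makes the activator of RNase L, by 1.73. Ifi27l2a ran from 3.19 to 3.98 in WT(HFD) and from 0.40 to 2.78 in CD44KO(HFD) and fell by 2.25, and its neighbour Ifi27l2b fell by 2.46. Toll-like receptors had 1 lower of 15 (6.67%), Cd180, whose sign turned under normexp. Interleukin and TNF genes and their receptors were split 4 and 4 of 64 (6.25% each), with a median of -0.08 that turned to 0.15 under normexp. Both lists lay near the shares of all genes, 7.76% higher and 6.69% lower, on the sides where they had calls.

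The promoters of 3 of the lower genes are printed to show the element, as the 250 bases before the start in GRCm38.p6 from RefSeq, with matches to GAAA, any 2 bases and GAAA, on either strand, in capitals.
Isg15, chr4:156200819-156201068, minus strand: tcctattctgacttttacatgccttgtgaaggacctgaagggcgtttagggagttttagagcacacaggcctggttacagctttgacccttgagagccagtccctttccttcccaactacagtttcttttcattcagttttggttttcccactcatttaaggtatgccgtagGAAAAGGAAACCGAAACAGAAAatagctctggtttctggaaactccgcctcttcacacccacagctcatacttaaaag
Ifit3, chr19:34583279-34583528, plus strand: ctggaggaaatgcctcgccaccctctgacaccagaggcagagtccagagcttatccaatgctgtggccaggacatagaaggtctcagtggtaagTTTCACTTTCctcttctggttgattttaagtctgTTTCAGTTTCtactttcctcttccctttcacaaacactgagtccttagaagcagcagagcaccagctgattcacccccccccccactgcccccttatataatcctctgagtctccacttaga
Oas1a, chr5:120907526-120907775, minus strand: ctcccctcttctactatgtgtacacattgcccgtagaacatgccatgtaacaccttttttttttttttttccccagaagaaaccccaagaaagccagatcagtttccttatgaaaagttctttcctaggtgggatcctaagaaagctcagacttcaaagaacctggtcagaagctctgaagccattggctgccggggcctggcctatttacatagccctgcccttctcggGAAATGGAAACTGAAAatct
Isg15 holds 3 matches that overlap each other, Ifit3 holds 2 apart, and Oas1a holds 2 that overlap. A match was held by 15 of the 31 listed genes that have a RefSeq promoter, against 3.46% of 27025 genes. The match did not separate lower genes from the rest, being present in 9 of 18 lower and 6 of 13 other members.

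Antigen presentation and lymphocyte markers were lower as well. Of 9 MHC class II genes 8 were lower (88.9%, against 6.69% of all genes), with a median of -1.17. Ciita, the factor that switches the class II genes on, read -1.57 to -1.01 in WT(HFD) and -3.42 to -2.08 in CD44KO(HFD) and fell by 1.56 (limma, adjusted p = 0.00952). H2-Ab1 fell by 1.31 and H2-Eb1 by 1.38, neither with overlap, and H2-Aa fell by 1.22 with overlap. Of the 8 lower genes 3 did not overlap between genotypes, against 599 of 954 among all lower genes. The summed level of the list was 34.3 to 67.6 in WT(HFD) and 17.5 to 33 in CD44KO(HFD), and 4 members were called under normexp, Ciita not among them (adjusted p = 0.0696), and 4 without WT(HFD) replicate 2.

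T cell markers were lower in 7 of 12, among them Cd3d at -1.04 and Lck at -0.90, and 1, Icos, was higher at 0.90. These shares, 58.3% and 8.33%, stand against 6.69% lower and 7.76% higher of all genes. The summed level of 11 of the 12 was 3.5 to 5.18 in WT(HFD) and 2.89 to 3.63 in CD44KO(HFD), which overlap. Cd247 and Cd28 were above background on no array, and 1 of the 7 was called under normexp. Of 8 markers of NK and cytotoxic cells 5 were lower (62.5%), Gzmb at -1.88 and Prf1 at -1.69 among them. Their summed levels were 1.06 to 1.76 in WT(HFD) against 0.43 to 0.588 in CD44KO(HFD). These are dim probes, no member was called under normexp, and Eomes, Klra8, Klrk1 and Ncr1, which define these cells, were above background on no array.

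Markers of infiltrating and lipid-associated macrophages were lower in 8 of 13 and higher in none, with a median of -1.54. The share called lower was 61.5%, against 6.69% lower and 7.76% higher of all genes. Trem2, the lipid receptor of these cells, read 2.58, 2.32, 1.46, 0.77 and 1.73 in WT(HFD) and -0.94, -0.55, 0.42, -1.34 and -1.39 in CD44KO(HFD) and fell by 2.53 (limma, adjusted p = 0.0103). The groups did not overlap, and CD44KO(HFD) replicate 3 lay nearest to WT(HFD) replicate 4. Gpnmb fell by 4.40 and Spp1, osteopontin, by 1.54, and both overlapped. The Gpnmb probe was above the detection limit on 1 CD44KO(HFD) array. Under normexp Gpnmb differed by -1.63 and was not called (limma, adjusted p = 0.0843), while Spp1 was (adjusted p = 0.0328). The summed level of the list was 74.2 to 190 against 45.6 to 116, and 4 members were called under normexp and 3 without WT(HFD) replicate 2. Stellate cell and fibroblast markers had 6 lower and 2 higher of 19 (31.6% and 10.5%), with summed levels of 168 to 226 against 148 to 176. How far cell numbers moved these lists was not tested.

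**Figure D5:**
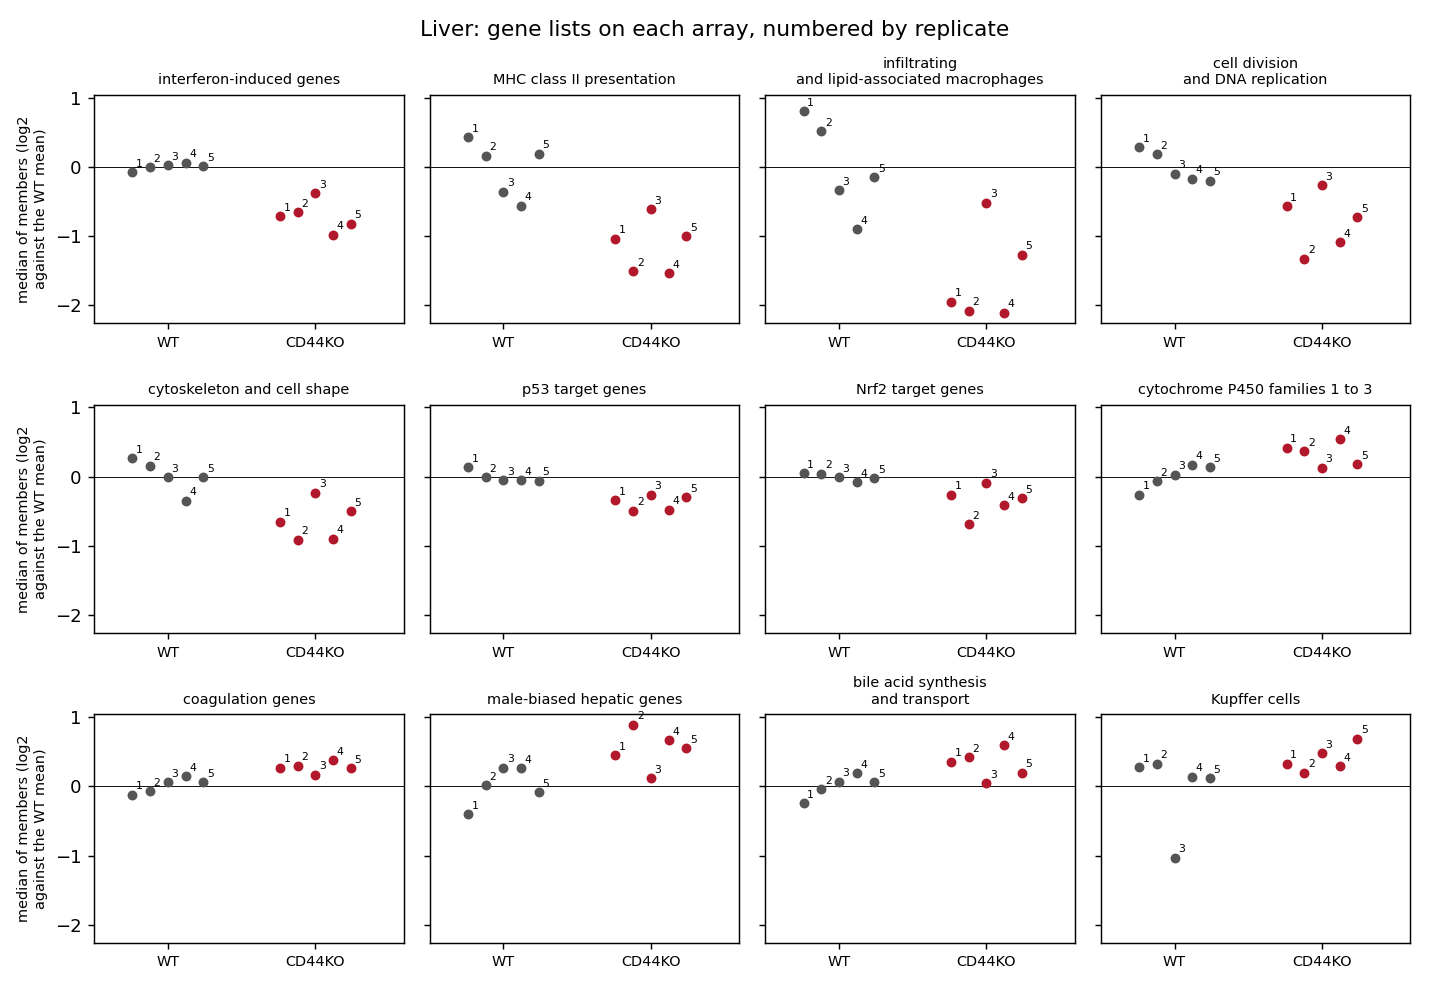
Median over the tested members of 12 gene lists on each array, as log2 against the mean of the 5 WT(HFD) arrays, with points numbered by replicate. CD44KO(HFD) replicate 3 is the knockout array nearest to WT in the infiltrating macrophage, cell division and male-biased lists, and the interferon list does not overlap between genotypes.

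Genes of dividing and damaged cells formed the next block. Of 32 genes of cell division and DNA replication 17 were lower and none higher, with a median of -0.85. The share called lower was 53.1%, against 6.69% lower and 7.76% higher of all genes. Ccnb1, cyclin B1, read -3.02 to -1.80 in WT(HFD) and -4.96 to -3.32 in CD44KO(HFD) and fell by 1.83 (limma, adjusted p = 0.0149), without overlap. Cdc20 fell by 1.51, Plk1 by 1.33 and Mki67 by 1.14. The count was 3 without WT(HFD) replicate 2, 6 under normexp, Ccnb1 not among them (adjusted p = 0.297), and 22 without CD44KO(HFD) replicate 3. Among 15 targets of p53, the factor that answers DNA damage, 7 were lower (46.7%). Cdkn1a, the inhibitor p21, read 0.41, -0.07, -0.47, -0.34 and -0.31 against -2.91, -2.52, -1.28, -2.52 and -1.78 and fell by 2.05 (limma, adjusted p = 0.0085). The groups did not overlap. Eda2r fell by 2.51 and Phlda3 by 1.90, and 3 targets were called under normexp, where Eda2r had an adjusted p of 0.526, and 3 without WT(HFD) replicate 2.

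The cytoskeleton list was lower in 17 of 34 (50%, against 6.69% of all genes), with a median of -0.71, and 17 were called lower under normexp. Anxa5, a calcium-dependent membrane binder, read 5.66 to 6.43 in WT(HFD) and 3.77 to 5.47 in CD44KO(HFD) and fell by 1.58 (limma, adjusted p = 0.0142), without overlap. S100a11, Anxa2 and S100a4 fell by 1.91, 1.67 and 1.53, and Krt8, a hepatocyte keratin, fell by 0.80. Of the 17 lower genes 7 did not overlap between genotypes, against 599 of 954 among all lower genes. The number called lower was 5 without WT(HFD) replicate 2. The summed level of the list was 964 to 1460 against 667 to 986.

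Targets of Nrf2, the factor of the antioxidant response, were lower in 7 of 19. The share was 36.8%, against 6.69% lower and 7.76% higher of all genes. Cbr3, a carbonyl reductase, read 4.21, 3.79, 3.22, 1.86 and 3.34 against 0.31, -0.04, 2.44, -0.22 and 0.64 and fell by 2.66 (limma, adjusted p = 0.0185), and the groups overlapped only between WT(HFD) replicate 4 and CD44KO(HFD) replicate 3. Srxn1 fell by 0.97 and Nqo1 by 0.81, 8 members were called under normexp, and 1 without WT(HFD) replicate 2. The antioxidant element was searched in both of its forms. TGACNNNGC was present in 5 of 15 listed genes with a promoter, 2 of the 6 lower and 3 of the 9 others, against 11.5% of all genes, and TGAGNNNGC in 3 of 15 against 16.3%. Lysosome and autophagy genes had 6 lower and 1 higher of 38 (15.8% and 2.63%), with Lipa, the lysosomal lipase, at -0.48 and Ctsd at -0.42. Immediate early genes had 4 lower and 1 higher of 24 (16.7% and 4.17%), with Egr2 at -1.92 and Dusp1 at 0.83.

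Among the largest single falls outside the genes the study tabulated, Sdcbp2, a syntenin, read 1.29, 1.02, 0.22, -1.65 and -0.02 in WT(HFD) and -4.46, -5.17, -1.81, -4.49 and -3.29 in CD44KO(HFD) and fell by 4.02, or 16.2-fold (limma, adjusted p = 0.0122). Ephb2, an ephrin receptor, fell by 3.89, Pls1, an actin bundler, by 3.14, and Bmp8b by 2.91. In the first 2, CD44KO(HFD) replicate 3 and WT(HFD) replicate 4 were the arrays nearest to the other genotype. Hk2, the hexokinase that normal hepatocytes barely make, read 0.34 to 1.09 against -1.98 to -0.42 and fell by 2.23 (limma, adjusted p = 0.00677). Sema3b, Pkp1, Rbp7, Serpina12 and Tnc, a matrix glycoprotein, fell by 2.27, 2.21, 2.20, 2.17 and 2.09. Under normexp Bmp8b, Pkp1, Rbp7 and Tnc had adjusted p between 0.478 and 0.730, Pls1 0.0984 and Serpina12 0.152.

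In the lists of central metabolism, against 7.76% higher and 6.69% lower of all genes, the share of calls varied. Glucose metabolism had 1 higher, Slc2a2 at 0.42, and 2 lower of 31, insulin signalling 1 higher, Irs1 at 0.31, and 1 lower, Pik3r1 at -0.61, of 18. The urea cycle and amino acid breakdown had 3 higher, led by Agxt at 0.85, and 1 lower of 33, with a median of 0.40. None was called higher under normexp or without WT(HFD) replicate 2, and 14 were without CD44KO(HFD) replicate 3. Agxt overlapped between genotypes and had a limma adjusted p of 0.207 under normexp. One-carbon metabolism had 2 higher and 1 lower of 19, the latter Mthfd2, which was at least 1.65-fold lower and turned sign under normexp. Fatty acid oxidation in mitochondria had 3 higher of 21, or 14.3%, with Acaa2 at 0.40, peroxisomal oxidation and Ppara targets 4 higher, or 16%, and 2 lower of 25, with Cyp4a14 at 1.11 and Pdk4 at -1.18, and the respiratory chain 4 higher of 64.

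The lists that follow stand against 7.76% higher and 6.69% lower of all genes, and several lay near or below these shares. Among lists of protein handling, the proteasome had 4 higher and 2 lower of 38 (10.5% and 5.26%). The 2 lower were Psmb8 and Psmb9, the interferon-induced subunits, at -0.56 and -0.81. Cytosolic ribosomal proteins had 6 higher of 81 (7.41%) and chaperones of the endoplasmic reticulum 1 of 23 (4.35%). Heat shock proteins had 1 lower of 15 (6.67%), Hspb1 at -1.15. The Atf4 response had 2 lower of 16 (12.5%) and the circadian clock 1 higher of 18 (5.56%), Hlf at 0.48. Pericentral genes had 2 higher of 18 (11.1%) and periportal genes 2 lower of 16 (12.5%). Secreted liver factors had 1 higher and 1 lower of 22 (4.55% each). Endothelial markers had 1 higher of 15 (6.67%), Ehd3 at 0.59. Neutrophil markers had 1 higher of 5 (20%), Csf3r at 0.59, and Camp, Cxcr2 and Ngp were above background on no array. Dendritic cell markers had 1 lower of 7 (14.3%), Bst2 at -0.48. Cholangiocyte markers had 2 lower of 7 (28.6%), Sox9 at -0.70 and Spp1. Their summed levels were 36.3 to 79, 2 to 3.19, 82.5 to 107 and 19.4 to 79.1 in WT(HFD) and 60 to 86.6, 1.17 to 2.42, 62.8 to 76.4 and 9.74 to 20.1 in CD44KO(HFD), in the same order. Most of the dendritic and cholangiocyte sums came from 1 gene each, Bst2, which interferon also induces, at 97.9%, and Spp1, also in the macrophage list, at 92.7%. Without them the sums were 1.41 to 1.91 against 1.3 to 2.22 for dendritic and 1.91 to 2.51 against 1.5 to 1.94 for cholangiocyte markers. Markers of adipocytes, erythroid cells, mesothelium and exocrine pancreas had no call.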

How the data were processed

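Total RNA of liver was labelled with Cy3 and hybridised to 1-colour Agilent mouse arrays. The authors deposited scanner files made with Agilent Feature Extraction 9.5, in which the processed signal is an intensity on a linear scale after a spatial surface was subtracted and a multiplicative trend removed, per the file headers, and the deposited series table equals it on 100% of spots. Normalization between arrays and tests on arrays are not given in the sources used here. Log2 of the processed signal minus the 75th percentile of 43379 non-control spots was computed, outlier-flagged spots were left out and spots of a probe averaged. A probe was tested if the scanner software marked it as detected over background on 3 or more of the 5 arrays of either genotype, which kept 24688 of 41174. CD44KO(HFD) and WT(HFD) livers, n = 5 each, were compared with limma 3.58.1 in R 4.3.3 (lmFit, eBayes, 10 liver arrays only) with Benjamini-Hochberg adjustment over all probes and a threshold of 0.05. The script was tested on simulated data. Probes were named through accession (22951), symbol (6659) or synonym (3109) in the RefSeq table, 8455 stayed unnamed, and each gene was read from its brightest probe. Of 5495 genes with several tested probes 11 were called both ways. The number of arrays limits the precision. A T cell marker is not reported here and was left out of that list's summed level.

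The 60 gene lists and the members were chosen with earlier results of these data known, so no list was tested and lists are described by counts and medians beside those over all genes. Named were Cd44, the 25 largest rises and 15 largest falls without overlap (the falls outside the genes the study tabulated), in each list up to 4 called members with the largest change or 2 with the smallest p where none was called, the 4 genes the study listed as higher in liver, and the 10 largest rises called in all fits with 1 array left out and under normexp. Abca1, Abcb4, Cd59a, Cebpa, Cyp2c23, Cyp2c29, Cyp4a12a, Dhx58, Dusp1, Fech, Fga, Icos, Ifit3, Irf7, Isg15, Krt8, Mki67, Orm1, Ppox, Ugt1a1, Zbp1, Zfp119b and Zfp467 were added after their values were seen, for their role. "At least" folds set the brighter group against the higher of the dim group's signal and the lowest signal well above background on each array. Alternatives were normexp (offset 50), other scalings and filters, slide or replicate number as a block, array weights, a variance trend, all 20 arrays in the fit, single slides, and leaving out each array.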

Additional observations from a re-analysis of the deposited data

Results flagged for a closer look

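In 302 groups of 5 arrays, 2 for each gene named, 15 held an array whose gap to the next, divided by the range of the group, passed Dixon's limit, and chance gives about 1 in 20. In CD44KO(HFD) replicate 5, Cxcl13 was high (0.52 against -2.74 to -2.15 in the others, gap ratio 0.821), as were Timd4 (0.12 against -1.53 to -1.25, 0.825), Id3 (2.93 against 1.73 to 2.03, 0.752) and Igfbp3 (-0.19 against -0.90 to -0.72, 0.748). In CD44KO(HFD) replicate 3, Clec2d was low (3.31 against 3.84 to 3.91, gap ratio 0.887) and Irs1 was low (2.09 against 2.27 to 2.33, 0.728), while Bmp8b was high (-4.47 against -6.87 to -6.53, 0.856) and Zbp1 was high (0.50 against -0.54 to -0.37, 0.833), each on the side of WT(HFD). In CD44KO(HFD) replicate 4, Cebpa was high (5.15 against 4.89 to 4.92, gap ratio 0.859).

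Among the wild-type arrays, WT(HFD) replicate 3 was high for Usp32 (-1.10 against -1.75 to -1.61, gap ratio 0.784) and low for Bmp6 (-2.55 against -1.94 to -1.83, 0.843) and Ugt1a1 (1.64 against 2.37 to 2.51, 0.83). WT(HFD) replicate 4 was low for Ifi27l2b (4.44 against 5.17 to 5.35, gap ratio 0.807) and Pkp1 (-3.59 against -2.76 to -2.54, 0.788) and high for Id1 (0.70 against -0.12 to 0.08, 0.757).

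For 4 genes every CD44KO(HFD) array lay below WT(HFD) in liver and above it in WAT. In liver Ifi27l2a differed by -2.25, Rbp7 by -2.20, Orm2 by -0.81 and Orm1 by -0.60, and in WAT they differed by 0.50, 0.77, 0.98 and 0.76. The difference between tissues was not tested.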

How the results depend on the processing

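The reported 3358 probes (1938 higher, 1420 lower; 57.7% higher) stayed within 1.5 times under quantile normalization, median centring, scaling to detected probes, the stricter filter, kept outlier-flagged spots, slide as a block, array weights and a variance trend, although scaling to detected probes turned the split to 45.5% higher. Counts were 641 (216 higher, 425 lower) under normexp, 1027 (449 and 578) with no filter and 723 (185 and 538) with all 20 arrays in the fit, so 33.7%, 43.7% and 25.6% were higher. Within slide A 12 probes were called (9 and 3) and within slide B 2 (0 and 2), with 2 arrays against 2. Leaving out 1 array at a time gave 858 to 4647 probes, 401 to 2773 higher and 457 to 1874 lower, lowest without WT(HFD) replicate 2 and highest without CD44KO(HFD) replicate 3. With the replicate number as a block 1329 were called (647 and 682); the numbers share no stated animal or batch, arrays of one number had correlated deviations of -0.04 to 0.42, and 3 of 10 arrays correlated best with their own number. Of 151 named genes 149 kept their direction in every one of 24 settings that tested them (the stricter filter tested 122); Mthfd2 turned to 0.11 and Cd180 to 0.09 under normexp, and 77 other calls were lost there. Of 40 list counts of 3 or more, 7 stayed within 1.5 times under normexp, 4 without WT(HFD) replicate 2, and 37 with the mean of a gene's probes. The causes were not tested.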
